A study of Mus musculus with 18 samples.

Results

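Cell cycle genes were followed in the cochlear nucleus of C57BL/6J mice, the brainstem nucleus that receives the auditory nerve, on oligonucleotide arrays. Pups were taken 7, 14 or 21 days after birth (P7, P14 and P21). The list named 41 probe sets, the rows of the array that each measure 1 transcript or group of transcripts. Of these, 40 were found among the 22690 rows and cover 36 genes, 4 of them with 2 probe sets each. The remaining identifier, listed for Bub1b, was not analysed here. The gene of each probe set was given with the list, since the deposited table holds identifiers only. The list was chosen from results measured on these same arrays, and its rule gives identifiers without naming the comparison that guided it. Every difference between ages therefore counts as used in the choice. Such differences are descriptions of the members, and nothing is read from the number called beside the share of all probe sets called.

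Each array held RNA pooled from 5 pups, and P7 and P21 had 3 arrays each while P14 had 2. One P21 label counts fewer replicates than there are arrays of that age, and all of them were used. The mice carried no stated treatment or allele at any age, so age was the only labelled difference. The labels do not state that the pools came from separate animals, so SDs and SEs cover the spread between these samples, which may be partly technical. The labelled tissue could not be checked against its own markers, since only the members are named here. Signals had a median of 98.6 to 110.5 per array, and precision is limited by how few arrays there are. Signal of the 5' part of 18S ribosomal RNA, a measure of carry-over, stood at 3530 on P7 replicate 2 and 6137 on P21 replicate 3 and between 38.6 and 1197 on the other arrays. Its part in the results was not tested.

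Dividing cells make these transcripts in a fixed order. Cyclin D proteins drive the entry into the cycle, the Mcm helicase, Pcna and the enzymes of nucleotide supply serve DNA synthesis, and cyclins A and B with Cdk1 bring the cell into mitosis, where kinases, the anaphase-promoting complex and spindle proteins part the chromosomes. In the hindbrain of the young mouse, granule cell and glial progenitors are known to go on dividing after birth while most neurons have left the cycle. Tissue of this kind mixes many cell types, so that fewer dividing cells and less of a transcript per cell cannot be told apart here.

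Most cell cycle transcripts were lower at P14 and at P21 than at P7. Of the 40 probe sets, 38 had a negative log2 change from P7 to P21, with a median of -1.74 over all 40, where the median of all probe sets tested was -0.02. Many members ended near the lowest signals the array can read, and with those set to the limit of that range the median was -1.30. The most negative fitted change was that of a histone H2A gene cluster, whose signal at P21 was 4.60% of that at P7. Cyclin D1 (Ccnd1) and securin (Pttg1) were the exceptions with no negative change. Signals of β-actin and Gapdh on the same arrays, read from the array's own control probe sets, were 6457 to 7706 and 4799 to 5475 at P7, 7270 to 7560 and 5974 to 6594 at P14, and 5113 to 7943 and 5023 to 7247 at P21. The ages overlapped for β-actin, while for Gapdh both P14 arrays lay above all P7 arrays and P7 overlapped with P21.

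**Figure D1:**
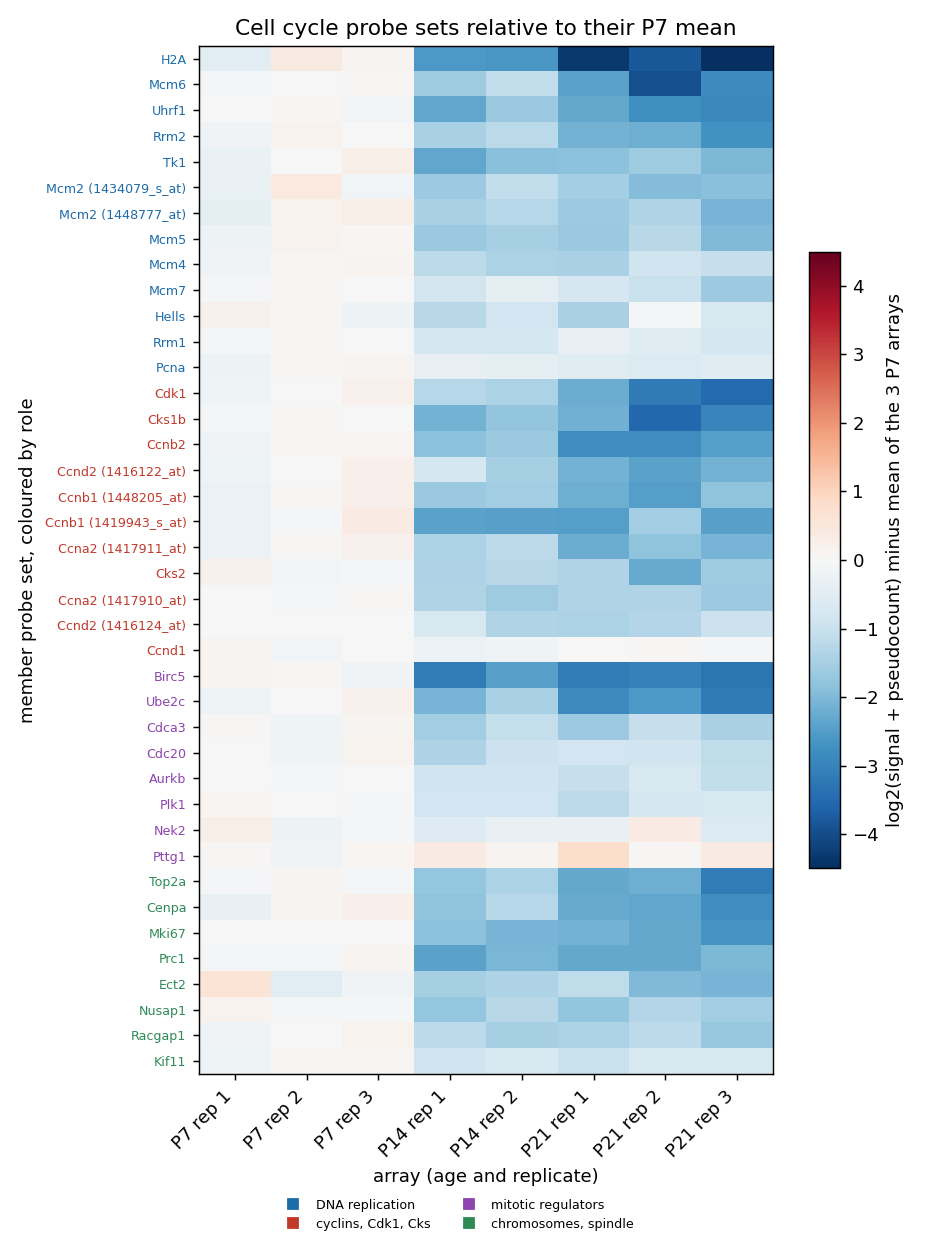
Log2(signal + 12.5) of the 40 probe sets on the 8 arrays, minus the mean of the 3 P7 arrays of the same probe set (colour, log2 scale); names are coloured by role and sorted by the change from P7 to P21. Blue fills the P14 and P21 columns for all but a few rows, with Ccnd1 near white and Pttg1 in red.

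Log2 changes are on the scale of log2(signal + 12.5), which understates the changes of dim probe sets. Probe sets with a mean signal under 50 over the 8 arrays were not tested, and 31 of the 40 passed this filter. A member that passed only through its P7 signal was bound to differ, so the counts that follow describe the 31 and not the whole list. A call means an adjusted p under 0.05 in limma after Benjamini-Hochberg adjustment over all 15296 probe sets tested. Between P7 and P21, 29 of the 31 were called lower and 0 higher, where 38.6% of all probe sets tested were called, 21.5% lower and 17.1% higher. At an unadjusted p under 0.05 in limma, 1 member was higher. Of the 29, 24 were lower by at least 1 on the log2 scale, where 4.83% of all probe sets were, and the fitted change was at least 2 in size for 14. In 36 of the 40, all P7 arrays lay above all P21 arrays (29 of the 31 tested), where 27.4% of all probe sets tested had this order. From P7 to P14, 28 of the 31 were called lower and 0 higher, also 0 higher at an unadjusted p under 0.05 in limma. Of all probe sets, 29.6% were called, 16.7% lower and 12.9% higher. The members called lower by at least 1 numbered 24, where 3.56% of all probe sets were. In 39 of the 40, all P7 arrays lay above both P14 arrays (30 of the 31 tested), where 34.6% of all probe sets tested had this order. Between P14 and P21, 6 of the 31 were called lower and 0 higher, where 2.05% of all probe sets were called, 1.2% lower and 0.843% higher. At an unadjusted p under 0.05 in limma 11 were lower and 0 higher. All 6 were lower by at least 1, where 0.281% of all probe sets were called and lower by that much.

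The 9 probe sets under the filter belonged to Kif11, Cenpa, Ect2, Nek2, Hells, Uhrf1, Tk1, the dimmer Ccnb1 probe set and the dimmer Ccnd2 probe set. With no filter, 7 of these 9 were called lower at P21, and 36 of all 40, where 14.8% of 22626 probe sets were. For P14 against P7 it was 35 of 40, where 10.9% were, and for P21 against P14 it was 1 of 40, the histone H2A probe set, where 0.301% were. The remaining pair under the filter, Nek2 and Hells, was not called.

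How low a signal can be read was judged from bacterial control transcripts taken as absent from an array. Which control had been added was inferred from the signals, as the one with the highest mean on each array. That mean ran from 897 on P21 replicate 1 to 8938 on P14 replicate 1. Probe sets of the other controls, taken as absent, reached at most 17.6 to 49.1 depending on the array. At P7 1 member lay within that range on every array, at P14 7 did and at P21 12 did. For 11 of those 12, the P7 signal gives a lower bound only, from at least 1.32-fold to at least 6.33-fold higher at P7, taking the highest absent control of each P21 array as the limit. The fitted changes of these probe sets depend on the pseudocount and are not exact sizes. They belong to Ube2c, Birc5, Ccnb2, Mcm5, Racgap1, Uhrf1, Cenpa, Tk1, the dimmer Ccnb1 probe set, Kif11 and Ect2. Kif11 also lay within that range on P7 replicate 1, so its bound is not firm. At P21, 13 members lay within that range on no array, and the fitted sizes of all others rest at least partly on such signals. A limit set by the absent controls, chosen after the values were seen, left the members' median from P7 to P14 at -1.34 and moved that from P14 to P21 from -0.24 to -0.009.

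Promoter sequence, which the identifiers' list did not use, was looked up for 35 named genes, and 30 had at least 1 window in RefSeq (GRCm38.p6), running from 250 bases before to 50 after the start of the gene. Cell cycle promoters are known for CCAAT boxes, bound by NF-Y, for the cell cycle genes homology region (CHR), which recruits the DREAM and MuvB complexes, and for E2F sites. Matches were sought on both strands for the letters CCAAT, for TTTGAA and its variant with a central CG, TTCGAA, as the CHR. The E2F letters were TTTGGCG, its relative TTTCGCG, and the third form TTCCCGC, and neighbouring matches were allowed to overlap. A CCAAT box was found in 25 of the 30 member genes (83.3%), where 42.3% of 17491 protein-coding genes and 41.1% of all 27025 genes of the table had one. Letters of the CHR were found in 16 genes (53.3%), where 20.2% of protein-coding genes had them. Each of the 16 also held a CCAAT box, and both together occurred in 8.22% of protein-coding genes. E2F letters were found in 8 member genes (26.7%), where 9.79% of protein-coding genes had them.

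By role, these matches were spread unevenly. The CHR letters occurred in 7 of 8 genes of chromosomes and the spindle, in 4 of 7 mitotic regulators and in 3 of 5 genes of the cyclin group, and in 2 of 10 replication genes, a share of 20.0% where protein-coding genes had 20.2%. E2F letters showed the other order, with 6 of 10 replication genes, 2 of 5 of the cyclin group (Cdk1 and Cks1b) and 0 of the other 15. No test was made of these shares. The letters were chosen because promoters of cell cycle genes are known to carry them, so the shares say nothing about the signals on these arrays.

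**Figure D2:**
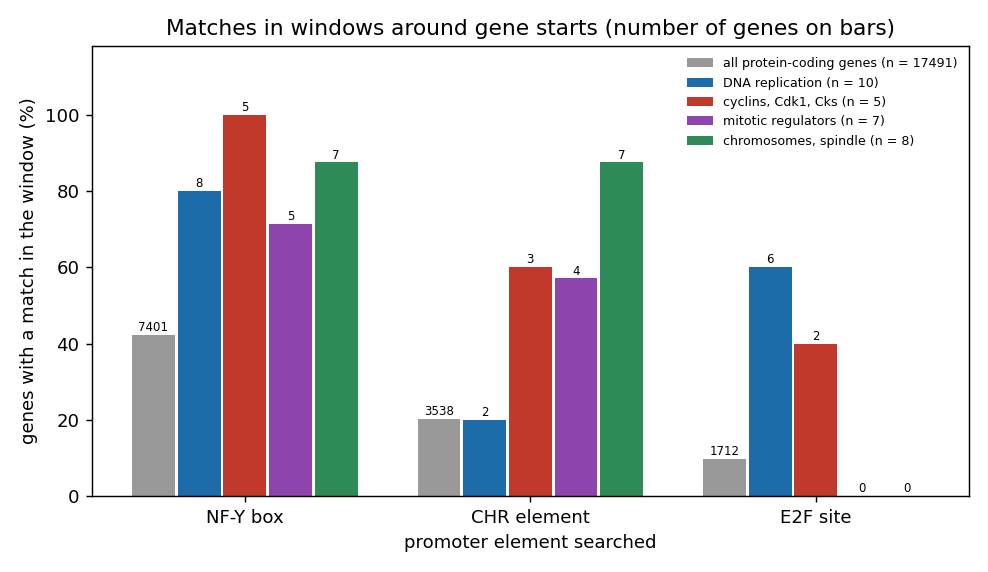
Percent of genes with at least 1 match to each promoter element (y axis) in windows from 250 bases before to 50 after the gene start, for all protein-coding genes and for the members by role; numbers on the bars count genes. CHR matches are at 87.5% in the chromosome and spindle group and 20.0% in the replication group, and E2F matches at 0.0% and 60.0%.

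The 110 bases before the start are shown for 8 genes, chosen after the matches were seen to contrast the arrangements, 5′ to 3′ on the strand of the gene, with matches to any of the 3 elements in capitals.
Cdc20 (chr4:118437344-118437453, minus strand): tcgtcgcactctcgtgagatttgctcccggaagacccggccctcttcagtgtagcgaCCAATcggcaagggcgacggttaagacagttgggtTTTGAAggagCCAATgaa
Ube2c (chr2:164769819-164769928, plus strand): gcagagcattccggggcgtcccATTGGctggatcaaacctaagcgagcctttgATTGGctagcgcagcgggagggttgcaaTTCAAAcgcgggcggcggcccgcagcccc
Cdk1 (chr10:69352913-69353022, minus strand): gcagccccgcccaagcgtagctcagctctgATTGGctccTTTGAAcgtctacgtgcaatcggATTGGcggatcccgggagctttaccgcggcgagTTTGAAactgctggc
Kif11 (chr19:37376272-37376381, plus strand): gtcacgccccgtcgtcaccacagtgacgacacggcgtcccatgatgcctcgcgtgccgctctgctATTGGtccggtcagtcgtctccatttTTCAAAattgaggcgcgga
Ccnb1 (chr13:100786487-100786596, minus strand): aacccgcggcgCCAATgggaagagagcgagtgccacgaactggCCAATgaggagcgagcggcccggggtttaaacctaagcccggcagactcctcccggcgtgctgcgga
Mcm6 (chr1:128359706-128359815, minus strand): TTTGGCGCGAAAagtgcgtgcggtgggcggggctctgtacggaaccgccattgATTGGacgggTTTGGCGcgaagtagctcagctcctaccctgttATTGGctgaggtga
Cks1b (chr3:89418292-89418401, minus strand): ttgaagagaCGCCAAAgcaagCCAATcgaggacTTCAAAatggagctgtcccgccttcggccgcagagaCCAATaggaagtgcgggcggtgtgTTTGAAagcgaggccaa
Pttg1 (chr11:43425982-43426091, minus strand): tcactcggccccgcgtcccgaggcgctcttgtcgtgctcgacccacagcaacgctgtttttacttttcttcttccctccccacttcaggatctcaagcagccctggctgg

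In Cdc20, Ube2c and Kif11 a CCAAT box starting 53, 57 and 45 bases before the start is followed by CHR letters starting 18, 29 and 19 bases before it. Cdk1 has this pair at 48 and 15 bases before the start, and Ccnb1 shows the CCAAT boxes alone. Mcm6 carries overlapping E2F letters and a further match. Pttg1, one of the members that was not lower at P21, has no match in its window, nor have Birc5, Tk1 and Nusap1, which had negative changes. A match is a run of letters, not a shown site of binding, and its absence says only that these letters are not in the window.

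Among the genes of DNA replication and nucleotide supply, 10 of 13 probe sets were tested, all 10 were called lower at P21 and 9 at P14. Of all probe sets tested, 21.5% were called lower at P21 and 16.7% at P14. The histone H2A probe set (1438009_at) had signals of 1180, 2266 and 1855 at P7, 275 and 268 at P14 and 72.2, 109 and 62.1 at P21. The 3 ages did not overlap, and the fall continued after P14. Its log2 change from P7 to P21 was -4.23 (SE 0.24), of which -2.60 had been reached by P14. Replication-dependent H2A genes lie in clusters of near-identical copies, so this probe set may read several of them.

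Mcm6, a subunit of the helicase that opens DNA at replication origins (1416251_at), had signals of 292, 300 and 309 at P7, 91.6 and 131 at P14 and 46.2, 7.6 and 30.4 at P21. The P7 arrays lay close together, while those of P21 spread widely at signals near the absent controls. The log2 change to P21 was -3.08 (SE 0.32), and -1.36 (SE 0.36) to P14. The other Mcm subunits are given next. Mcm2 was measured by a probe set (1434079_s_at) with 198, 341 and 229 at P7, 72.6 and 110 at P14 and 77.2, 55.5 and 58.5 at P21, and by another (1448777_at) with 103, 162 and 175, then 43.7 and 51.5, then 38.2, 49.0 and 24.3. Both placed every P7 array above the later ones, with log2 changes to P21 of -1.79 (SE 0.22) and -1.68 (SE 0.24). For Mcm4 and Mcm7 the changes were -1.13 and -1.12, and for Mcm5, within the range of absent controls on all P21 arrays, the P7 signal was at least 2.90-fold higher.

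Pcna, the sliding clamp of the DNA polymerases and a common marker of dividing cells (1417947_at), had a smaller log2 change. Its signals were 1182, 1469 and 1526 at P7, 1077 and 1046 at P14 and 951, 900 and 945 at P21, so 67.0% of the P7 mean remained. The groups did not overlap, and the log2 change was -0.56 (SE 0.11). Rrm1 (1415878_at), the large subunit of ribonucleotide reductase, which makes deoxynucleotides, had 236, 257 and 254 at P7, 141 and 140 at P14 and 189, 169 and 139 at P21. All P7 arrays lay above the rest, with a log2 change of -0.56 (SE 0.13) to P21. Its partner Rrm2, the small subunit whose level is tied to S phase, changed by -2.35 (SE 0.19), from a mean of 239 to 86.6 at P14 and 37.2 at P21.

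Thymidine kinase Tk1 and Uhrf1, which brings DNA methylation to newly copied strands, lay under the filter and within the range of absent controls on all P14 and P21 arrays. Their P7 signals were at least 2.22-fold and at least 2.49-fold those of P21. The chromatin remodeller Hells (1417541_at) had 54.3, 48.1 and 36.8 at P7, 12.4 and 20.0 at P14 and 8.80, 42.2 and 23 at P21. Its P7 and P21 arrays overlapped, with P21 replicate 2 among the P7 signals, and it was called in no comparison of ages with no filter. For Hells, both P14 arrays and 2 of 3 P21 arrays lay within the range of absent controls.

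**Figure D3:**
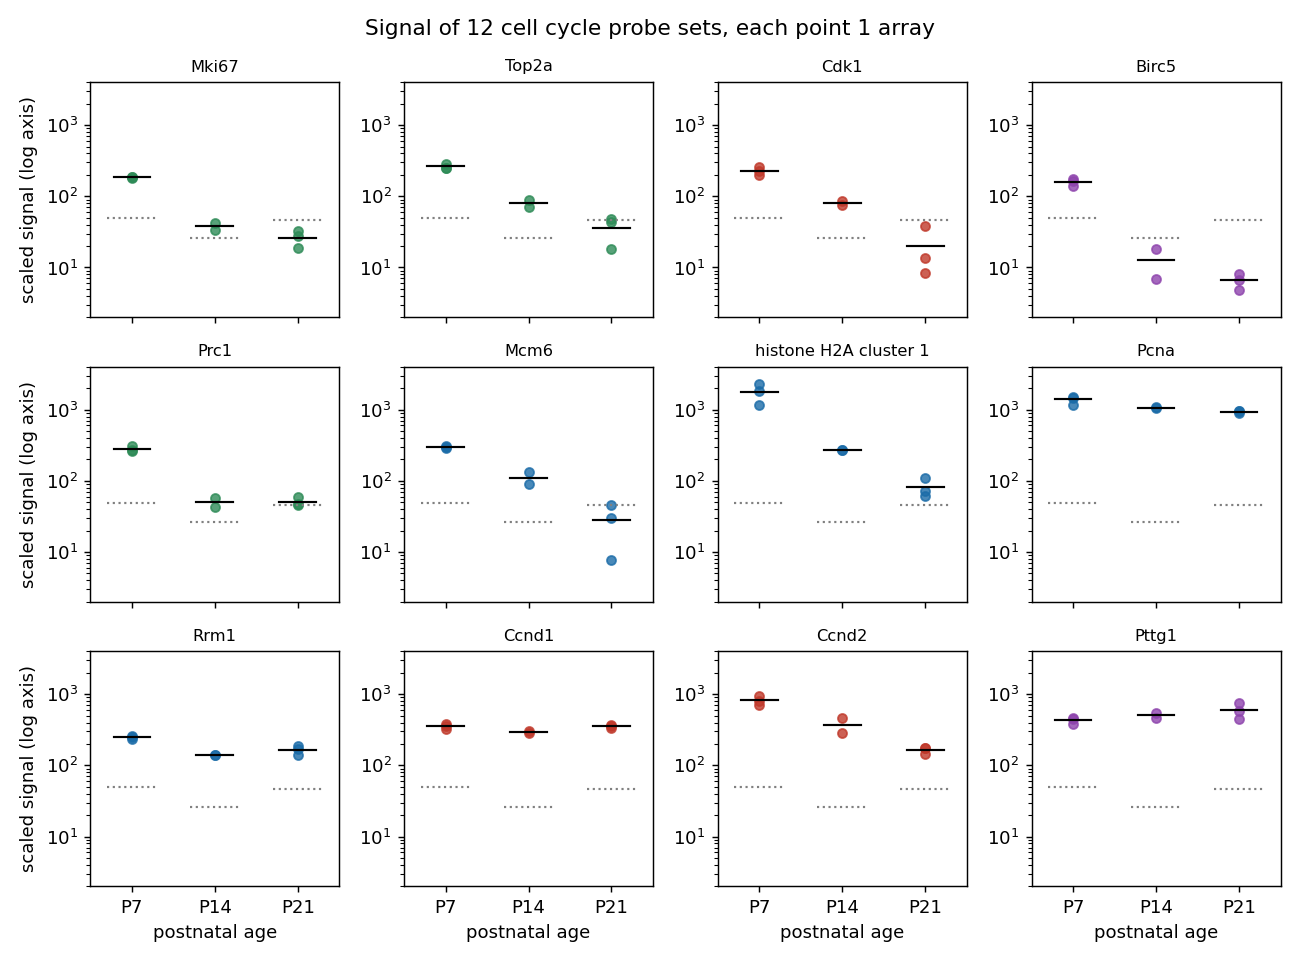
Scaled signal (log axis) of 12 probe sets at P7, P14 and P21, where each point is 1 array, the black bar the mean and the dotted line the highest signal of an absent control on any array of that age; for Ccnd2 the probe set with the higher mean is drawn. Birc5 lies under the dotted line at P14 and P21, while Pcna, Rrm1, Ccnd1 and Pttg1 stay far above it.

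In the group of cyclins, Cdk1 and Cks subunits, 9 of 11 probe sets were tested and 8 were called lower at both later ages. The shares of all probe sets tested that were called lower were 16.7% at P14 and 21.5% at P21. Cdk1 (1448314_at), the kinase of entry into mitosis, had signals of 197, 224 and 257 at P7, 86.1 and 75.0 at P14 and 38.3, 13.7 and 8.4 at P21. The 3 ages did not overlap, with log2 changes of -1.35 (SE 0.32) to P14 and -2.97 (SE 0.29) to P21. Of its P21 arrays, 2 of 3 lay within the range of absent controls. Cks1b (1416698_a_at), a small Cdk-binding protein, had 461, 499 and 487 at P7, 101.1 and 131 at P14 and 99.1, 30.1 and 51.1 at P21. Its log2 change was -2.88 (SE 0.28), and that of its paralog Cks2 -1.74 (SE 0.23). For each of them, 1 of 3 P21 arrays lay within the range of absent controls.

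Cyclin A2, active from S phase into G2, was read by 2 probe sets that parted after P14. The first (1417910_at) had 259, 249 and 267 at P7, 92.4 and 77.0 at P14 and 92.8, 94.0 and 73.9 at P21. The second (1417911_at) had 179, 224 and 250, then 72.9 and 87.2, then 35.5, 52.6 and 41.2. Up to P14 their log2 changes were close, -1.48 (SE 0.15) and -1.31 (SE 0.20), while from P14 to P21 they were 0.03 (SE 0.15) and -0.74 (SE 0.20), neither of them called. For the second probe set, 1 of 3 P21 arrays lay within the range of absent controls. Whether the 2 probe sets read different transcripts was not tested.

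Cyclin B1, the partner of Cdk1, had 154, 193 and 221 at P7, 51.0 and 55.9 at P14 and 31.5, 23 and 44.6 at P21 in its brighter probe set (1448205_at). Its dimmer probe set (1419943_s_at) had 56.5, 65.6 and 96.8 at P7 and between 2.60 and 15.9 on all later arrays, within the range of absent controls. The brighter probe set had a log2 change to P21 of -2.16 (SE 0.21), with 2 of 3 P21 arrays also within that range. The dimmer one supports only a P7 signal at least 1.84-fold that of P21. Ccnb2, the other B-type cyclin, was called lower and at P21 lay in that range on all arrays, so its P7 signal was at least 2.98-fold higher.

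The D-type cyclins differed from each other. Ccnd2 (1416122_at) had 707, 798 and 945 at P7, 459 and 282 at P14 and 175, 143 and 177 at P21, with no overlap between ages and a log2 change of -2.22 (SE 0.18). About as much of its fitted fall came after P14 as before, -1.07 (SE 0.20) against -1.15 (SE 0.20). The P14 arrays differed, and with 1 array left out the change after P14 ran from -1.42 to -0.73, so this split is not firm. The dimmer Ccnd2 probe set (1416124_at) lay at 23.4 to 25.1 at P7 and 1.1 to 9.6 later, all within the range of absent controls, and gives no fold. Ccnd1 (1417420_at) had 386, 320 and 353 at P7, 289 and 306 at P14 and 358, 366 and 338 at P21. Its P7 and P21 arrays overlapped, and the log2 change of 0.01 (SE 0.10) took either sign when settings were changed. The difference between Ccnd1 and Ccnd2 was not tested.

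Of the regulators of mitosis, 7 of 8 probe sets were tested and 6 were called lower at both later ages. Among all probe sets tested, 16.7% were called lower at P14 and 21.5% at P21. Birc5 (1424278_a_at), which guides the chromosomal passenger complex, had 173, 163 and 138 at P7, 6.90 and 18.4 at P14 and 6.70, 8.20 and 4.90 at P21. The 2 later ages overlapped each other and lay within the range of absent controls, so the P7 signal was at least 7.36-fold that of P14 and at least 4.08-fold that of P21. The second bound is lower because the absent controls read higher on the P21 arrays. Ube2c (1452954_at), the ubiquitin-conjugating enzyme of the anaphase-promoting complex, had 212, 245 and 281, then 48.2 and 80.5, then 22.4, 30.3 and 15.9. No ages overlapped, and with all P21 arrays within the range of absent controls the P7 signal was at least 6.33-fold that of P21.

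Cdca3, Cdc20, Aurkb and Plk1 changed less, by -1.37, -0.97, -0.95 and -0.89 on the log2 scale from P7 to P21. Cdc20, the activator of the anaphase-promoting complex, kept 48.2% of its P7 signal and the mitotic kinases Aurkb and Plk1 46.7% and 48.4%. Nek2 (1417299_at), a centrosome kinase, had 49.3, 32.1 and 38.1 at P7, 22.3 and 28.2 at P14 and 28.3, 53.8 and 21.1 at P21. Its P7 and P21 arrays overlapped, and P21 replicate 2 gave the highest of all its P21 signals, while the other P21 arrays lay within the range of absent controls. Pttg1 (1424105_a_at), the securin that restrains the separation of sister chromatids until anaphase, had 448, 378 and 461 at P7, 551 and 462 at P14 and 758, 449 and 575 at P21. Those ages overlapped as well, with a log2 change of 0.43 (SE 0.17) that was not called, but was called at 0.61 without P21 replicate 2 and at 0.43 with the replicate number as a block.

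The 8 probe sets of chromosomes, the spindle and cytokinesis all had P7 arrays above all P21 arrays, where 27.4% of all probe sets tested did. Of the 8, 5 were tested, and all 5 were called lower at P14 and at P21. Of all probe sets tested, 16.7% and 21.5% were called lower at these ages. Mki67 (1426817_at), which coats mitotic chromosomes and is the usual stain for dividing cells, had 183, 185 and 186 at P7, 42.0 and 33.7 at P14 and 32.7, 27.4 and 18.5 at P21. The P7 arrays lay close together and above all later ones, and the log2 changes were -1.97 (SE 0.21) to P14 and -2.37 (SE 0.18) to P21. For Mki67, 2 of 3 P21 arrays lay within the range of absent controls. Top2a (1454694_a_at), the topoisomerase that untangles sister chromatids, had 249, 287 and 253 at P7, 69.8 and 88.9 at P14 and 43.1, 47.6 and 18.2 at P21. Ages did not overlap, and its log2 change was -2.55 (SE 0.24), with 1 of 3 P21 arrays within the range of absent controls.

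Prc1 (1423775_s_at), which bundles microtubules at the spindle midzone, had 271, 259 and 306, then 42.4 and 57.4, then 46.9, 46.4 and 58.6. The 2 later ages overlapped, so that its whole log2 change of -2.21 (SE 0.16) was there by P14, at -2.23 (SE 0.18). Cenpa (1450842_a_at), the histone of centromeres, had 69.8, 99.2 and 108 at P7, 17.3 and 30.4 at P14 and 8.90, 8.1 and 2.5 at P21, a bound of at least 2.35-fold. The spindle motor Kif11 (1452315_at) had 45.2, 57.7 and 56.9, then 22.3 and 28.4, then 20.2, 26.8 and 28.6. Its bound came to 1.37-fold but is not firm, since P7 replicate 1 also lay under the limit of its array, 49.1. Racgap1 (1421546_a_at), which acts in cytokinesis, had 85.7, 99.6 and 110, then 36.2 and 26.4, then 29, 36.2 and 21.4, a bound of at least 2.54-fold. In these last 3 genes the P7 arrays all lay above the others. Nusap1 changed by -1.55 (SE 0.20). Ect2 lay within the range of absent controls on all P14 and P21 arrays, and its P7 signal was at least 1.32-fold that of P21.

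**Figure D4:**
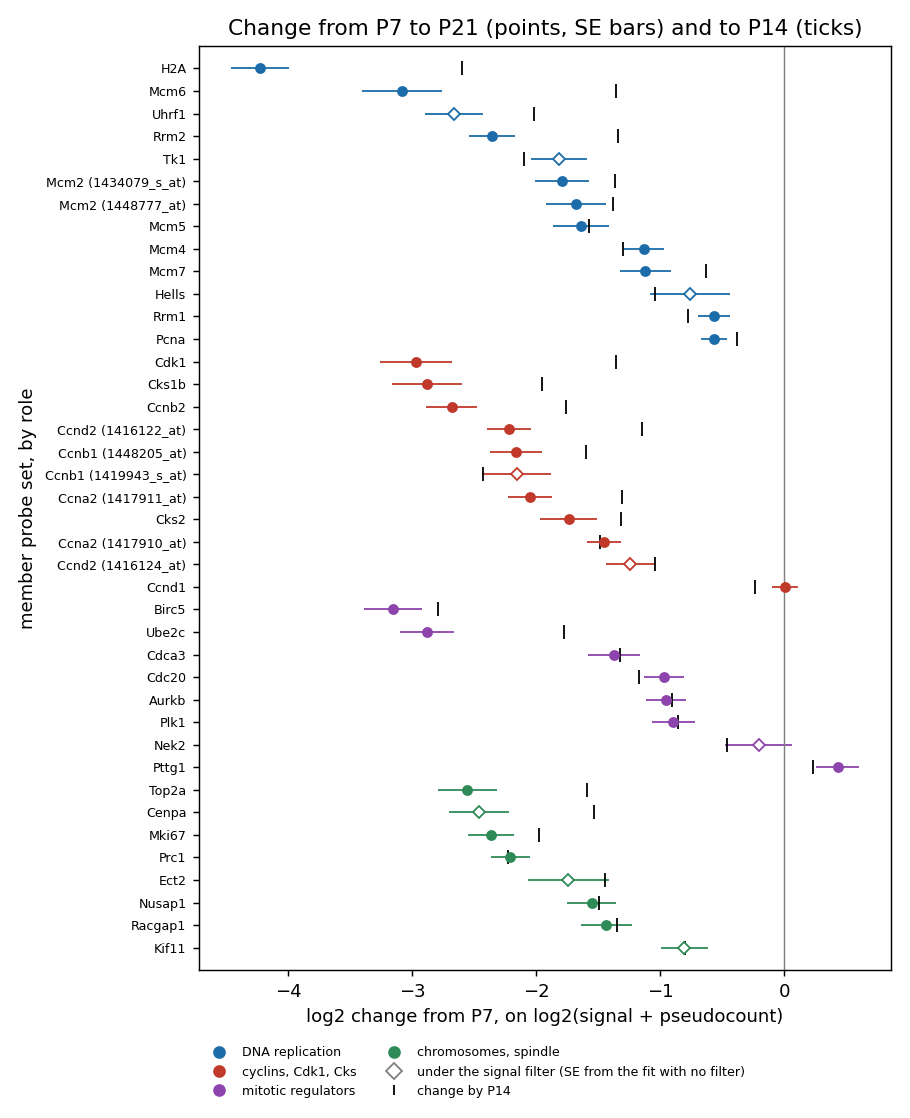
Log2 change from P7 to P21 of each probe set (points, with SE bars) and from P7 to P14 (black ticks), by role; open diamonds lay under the signal filter. Points left of their tick were lower at P21 than at P14 (H2A, Ccnd2), and points on or right of it were not (Prc1, Cdc20, Rrm1); sizes are not exact for members within the range of absent controls, such as Birc5 and Ube2c.

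How much of the change had come about by P14 is described without a test between members. In the 30 probe sets with a log2 change of at least 1 in size from P7 to P21, a median share of 0.759 of it had been reached by P14. The share was 0.733 over the 754 probe sets tested that were lower by at least 1, and the difference between these shares was not tested. With 1 array left out the members' median ran from 0.711 to 0.824. Of the 30, 11 lay within the range of absent controls on every P14 or every P21 array, so that their shares have no exact size. The median over the other 19 was 0.741. Of the 30, 7 had no P21 array within that range, and their shares ran from 0.516 for Ccnd2 to 1.15 for Mcm4.

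The 6 members called lower between P14 and P21 were Mcm6 (log2 change -1.73, SE 0.36), H2A (-1.63, SE 0.26), Cdk1 (-1.62, SE 0.32), Ube2c (-1.11, SE 0.24), Ccnd2 (-1.07, SE 0.20) and Rrm2 (-1.01, SE 0.21). All P21 arrays of Ube2c, 2 of 3 of Cdk1 and of Mcm6 and 1 of 3 of Rrm2 lay within the range of absent controls, so these sizes depend on the pseudocount, while H2A and Ccnd2 lay above that range on every array. In all 6 both P14 arrays lay above all P21 arrays. That order held in 14 of the 40 members (13 of the 31 tested) and in 16.8% of all probe sets tested. The number of members called was 0 in limma without P14 replicate 1, without P14 replicate 2 or without P21 replicate 3, where 13, 9 and 11 were lower at an unadjusted p under 0.05. It was 1 without P7 replicate 2, 2 without P7 replicate 3 and 2 without P21 replicate 2. The log2 changes of the 6 were negative in all these settings.

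To compare the 2 intervals, the log2 change after P14 was subtracted from the one before it. This difference was called in 7 of 31 members, all with the more negative change before P14. Of all probe sets, 8.01% were called, 4.08% in that direction and 3.93% in the other, in which 0 members were called (0 also at an unadjusted p under 0.05 in limma). By size these were Birc5 (-2.43, SE 0.47), Prc1 (-2.25, SE 0.32), Mki67 (-1.58, SE 0.37), Ccna2 in its first probe set (-1.51, SE 0.28), Mcm4 (-1.46, SE 0.33), Cdc20 (-1.38, SE 0.32) and Rrm1 (-0.99, SE 0.26). The count in limma was 0 without P14 replicate 1, where 8 had an unadjusted p under 0.05, 1 without P14 replicate 2, 3 without P7 replicate 3 and 4 without P7 replicate 2. All of these comparisons share the P14 or the P7 arrays, and for Birc5 the signals after P7 lay within the range of absent controls, as did 2 of 3 P21 arrays for Mki67.

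Within an age, the members did not all move together. On P21 replicate 3, 28 of 40 members lay below the mean of their age, with a median deviation of -0.14 on the log2 scale, where that of all probe sets tested was -0.01. P21 replicate 2 stood at 0.10 with 26 above, and P21 replicate 1 at 0.02 with 23 above. Over the 8 arrays, 48.4% to 53.1% of all probe sets tested lay above the mean of their age. On P7 replicate 1, 26 of 40 lay below, but the roles differed, with 2 of 13 replication probe sets and 7 of 8 mitotic ones above the mean. On P7 replicate 2 it was 12 of 13 and 2 of 8. P14 replicate 2 lay above P14 replicate 1 in 27 of 40, where it did in 51.1% of all probe sets tested. The members' deviations are at most 0.14 in size as medians, where the median change from P7 to P21 was -1.74.

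**Figure D5:**
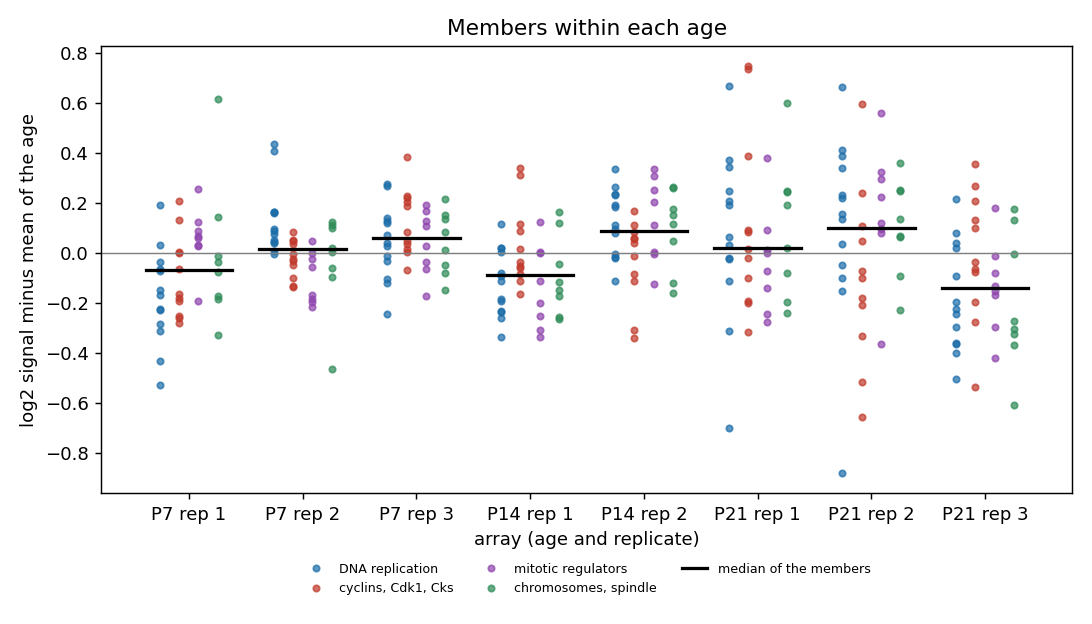
Log2(signal + 12.5) of each member minus the mean of its age (y axis), by array (x axis) and coloured by role; black bars are the median over the 40 members. The medians run from -0.14 on P21 replicate 3 to 0.10 on P21 replicate 2, and replication genes lie mostly below 0 on P7 replicate 1 and above 0 on P7 replicate 2.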

How the data were processed

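RNA of the cochlear nucleus was measured on 8 oligonucleotide arrays. Each row of the deposited table is a probe set with 1 intensity per array, already scaled. GCOS is named, without a version, in the submitters' processing notes. The authors had brought the arrays to a common level, since the 2%-trimmed mean of the deposited intensity was 250.1 on each. Values were rescaled to it, 64 control rows were dropped, and log2(signal + 12.5) was fitted with limma 3.58.1 in R 4.3.3 (lmFit, eBayes with an intensity trend) on all 8 arrays with age as the only term. Tests were two-sided.

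Members and lists were chosen with earlier results of these data known. By rule, members given array by array are the usual markers of division (Mki67, Top2a, Cdk1, Pcna), genes with 2 probe sets, the 2 most and 2 least negative changes of each role, members not called, and those called after P14 or between intervals (at most 6, by size). Further lists of pathway genes and cell type markers, and the spotted cDNA arrays, were not used here, because no table at hand names those features. The procedure was tested on simulated data. Alternatives covered the pseudocount, filter, scaling, moderation, blocks and arrays left out. No member was tested adjusted over the list alone. Figures were drawn with matplotlib 3.10.9.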

Additional observations from a re-analysis of the deposited data

Results flagged for a closer look

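In 7 of the 31 members tested, the difference between the log2 change before P14 and the one after it was called in limma. All 7 had the more negative change before P14, where 8.01% of all probe sets tested were called, 4.08% in that direction. The count was 0 without P14 replicate 1 and 1 without P14 replicate 2. With a single P14 array left, its spread is taken to equal that within P7 and P21.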

How the results depend on the processing

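The count of members called between P7 and P21 (29) was 26 to 36 in the alternatives other than the stricter filter (26 with the spiked control as a block, which lost Mcm7, Pcna and Rrm1, and 36 with no filter), under which 17 were called because fewer were tested. For P14 against P7 (28) it was 24 to 35, and 16 under that filter. The median log2 change from P7 to P21 was -1.90 with a pseudocount of 5 and -1.14 with one of 50, and that from P7 to P14 was -1.05 with the latter. With members in the range of absent controls set to its limit, an alternative chosen after seeing the data, the median was -1.30 from P7 to P21 and -0.009 from P14 to P21 (-0.24 otherwise). The 6 calls between P14 and P21 became 1 with no filter, 2 with no intensity trend, 2 with only the ages compared, 3 with the replicate block and 0 with the spiked poly-A control as a block (limma, 10 lower at an unadjusted p under 0.05), and 0 to 6 with 1 array left out. With that control as a block, where P21 rests on replicate 1, the 7 calls for the difference between intervals became 0 (limma, 12 at an unadjusted p under 0.05). They were 4 after quantile normalization and 0 to 7 with 1 array left out. Medians with 1 array left out ran from -1.86 to -1.63 (P21 against P7) and from -1.46 to -1.32 (P14 against P7). Between arrays with equal replicate numbers, correlations of their deviations ran from -0.04 to 0.28 over 7 pairs. Deviations of the 2 P14 arrays mirror each other, so the pairs are not independent and cannot settle whether such arrays were paired. With the replicate block 30, 28 and 5 members were called for P21 against P7, P14 against P7 and the difference between intervals. The 30 include Pttg1, which was called higher at P21. Ccnd1 turned to -0.0015 from P7 to P21 with the spiked control as a block and ran from -0.0613 to 0.07 with 1 array left out. For Nek2 the same range was -0.486 to 0.0042. Pseudocount and signals near the absent controls limit the size of the falls. The cause of these shifts was not tested.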
